A study of Homo sapiens with 12 samples.

Results

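The clone-named and LINC transcripts of K562 cells, a human chronic myeloid leukaemia line with erythroid features, were examined across 12 RNA-seq libraries. A gene was a member if its name in the deposited tables was a genomic clone name beginning with AC, AL or AP, or LINC with a number, and if it reached 10 FPKM, a fragment number scaled to transcript length and to the size of the library, in at least 1 library. Of 20758 genes with such names, 449 met this level, of 58233 genes in the tables. The other 20309 stayed under 10 FPKM, and 11947 were listed at 0 in every library. The members comprised 383 clone names and 66 LINC names. The members were thus chosen by their FPKM in these same libraries, so their levels are a description. Just inside the threshold, AC106886.5, AC109635.4 and AL627309.2 had highest values of 10.046, 10.053 and 10.068 FPKM, and just outside it AC132192.2, AC008443.3 and AC009084.3 had highest values of 9.948, 9.949 and 9.953 FPKM.

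All libraries came from K562 cells grown in the same medium, and CRISPR/Cas9 made the knockouts. The clones comprised 3 clones in which the mutant ASXL1 allele was knocked out and 3 parental clones. The cell pools, which mix edited cells, comprised 2 FOXK2 knockout pools, 2 FOXK1 knockout pools and 2 SCR pools, the controls. ASXL1 encodes a Polycomb-associated chromatin protein, and FOXK1 and FOXK2 encode forkhead transcription factors. A clone descends from its own founder cell, and nothing in the labels says whether the replicates were cultured apart beyond being separate clones or pools, so p-values measure the spread between these samples. Clones and pools were deposited in different tables that may have been normalized separately. Levels of clones and pools are therefore set side by side below without a test between them.

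A clone name is a placeholder taken from the sequenced genomic clone in which an annotated gene lies, and LINC names are given to long intergenic noncoding RNAs with no better-known function. Such names cover long noncoding RNAs, some of which act in the nucleus on transcription or serve as precursors of microRNAs, and pseudogenes, which are copies of other genes. A processed pseudogene is a copy of a spliced messenger RNA inserted elsewhere in the genome, so its reads can look like those of its parent gene. Other genes with such names are read-through transcripts, which join exons of neighbouring genes, and entries marked as awaiting experimental evidence (TEC).

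The letters of a few members are shown first because the sharpest on and off patterns below belong to short copies of other sequences. AC022296.2 (ENSG00000250983, later named FAM76AP1) is a processed pseudogene on chr3:133546071-133546272 (GRCh38, GENCODE 29, minus strand) and is shown above the matching 202 bases of the spliced FAM76A transcript, whose exons lie on the plus strand of chromosome 1. Capitals mark the 3 positions at which they differ.
AC022296.2: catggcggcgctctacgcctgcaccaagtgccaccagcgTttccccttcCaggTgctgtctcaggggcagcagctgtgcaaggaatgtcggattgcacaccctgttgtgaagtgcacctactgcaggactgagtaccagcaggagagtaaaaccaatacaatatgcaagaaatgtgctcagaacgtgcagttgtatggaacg
FAM76A: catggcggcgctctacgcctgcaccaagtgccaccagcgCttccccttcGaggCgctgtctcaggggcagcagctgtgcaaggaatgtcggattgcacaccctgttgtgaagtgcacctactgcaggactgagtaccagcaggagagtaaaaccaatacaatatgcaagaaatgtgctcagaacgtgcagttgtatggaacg
With positions counted from 1 at the 5′ end of AC022296.2 and the FAM76A base given first, the differences were C40T, G50C and C54T, an identity of 98.5%. The FAM76A start codon began at base 2 of this stretch, and 2 of its exon junctions, after bases 82 and 147, were joined in the pseudogene.

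AC087072.1 (ENSG00000270889, later PPP1R14BP4) is a processed pseudogene of 421 bases on chr7:35971147-35971567 (minus strand), and it is shown because it was listed at 0 in all mutant ASXL1 knockout clones and had a signal in all parental clones. Its first 300 bases are printed (chr7:35971268-35971567). AC019205.3 is a processed pseudogene on chr6:73373108-73373263 (minus strand), shown because it held the highest value that any member reached in 1 library alone. Its 156 bases are identical to the coding sequence of RPL39, a protein of the large ribosomal subunit, from the start codon atg to the stop codon taa (both in capitals).
AC087072.1: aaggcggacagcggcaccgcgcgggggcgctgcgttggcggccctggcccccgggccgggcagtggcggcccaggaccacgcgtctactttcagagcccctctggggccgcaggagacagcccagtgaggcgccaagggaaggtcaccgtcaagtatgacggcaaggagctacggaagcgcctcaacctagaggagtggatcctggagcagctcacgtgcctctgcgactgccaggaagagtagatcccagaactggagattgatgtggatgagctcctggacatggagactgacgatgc
AC019205.3: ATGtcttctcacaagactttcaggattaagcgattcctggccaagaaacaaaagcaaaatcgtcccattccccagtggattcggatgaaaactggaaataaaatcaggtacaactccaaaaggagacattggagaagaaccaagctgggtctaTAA
AC087072.1 was 90.5% identical to PPP1R14B, which encodes an inhibitor of protein phosphatase 1, and had no copy at the 95% identity used here to call a near-identical copy. AC019205.3 had near-identical copies in 13 other genes, of which 1 was identical over the whole transcript.

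Members AL034397.3 (later MIR223HG) and AC004687.1 (later MIR142HG) carry the microRNA genes MIR223 and MIR142 in an exon, and both hosts changed in 1 of the comparisons or more. Their mature microRNAs, from RefSeq on GRCh38.p14, are shown with the seed, bases 2 to 8, in capitals. miR-223 and miR-142 are best known from blood cells.
hsa-miR-223-3p: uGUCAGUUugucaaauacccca
hsa-miR-223-5p: cGUGUAUUugacaagcugaguu
hsa-miR-142-3p: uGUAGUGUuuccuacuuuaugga
hsa-miR-142-5p: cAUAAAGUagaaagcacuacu
No seed was shared among the 4. The libraries measured the host transcripts, and mature microRNAs were not analysed here.

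By GENCODE 29, 251 members were long noncoding RNAs, 117 pseudogenes, 58 protein coding, 18 TEC, and 5 were not on its primary assembly. A later symbol was found for 137 members. Chromosomes 1 and 19 held the most, with 50 and 49. Much of the set could not be measured apart from other genes: 191 members (42.5%) overlapped an exon of another gene, 60 (13.4%) had a near-identical copy covering at least 50% of the transcript, 36 (8.02%) had both, and 157 (35%) had neither. The labels do not say whether the libraries kept the strand, so reads of a member and of a gene on the opposite strand cannot be told apart.

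Most members kept a signal in every library, though their levels could still differ between groups. In 293 members (65.3%), every library of every group was at 5 FPKM or more, here called on, and 171 had 10 FPKM or more in all 12 libraries. The median of the members' mean levels was 12.7 FPKM, with a range of 0.842 to 1144 FPKM, and 24 members averaged 100 FPKM or more. Members made up 1.39% to 1.52% of the summed FPKM of a library. At the other end, 66 members (14.7%) were listed at 0 in at least 1 library, and 29 were above 1 FPKM in only 1 library of 12.

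The 12 most abundant members were led by copies of ribosomal protein genes. AC116533.1 (later RPL36AP37), identical to RPL36A over its whole 321 bases, averaged 1144 FPKM over the 12 libraries, and AC004057.1, identical to RPS26 over 348 of its 498 bases, averaged 1045 FPKM. AC074033.1 (later RPL22P1), 98.0% identical to RPL22 over 357 bases, averaged 182 FPKM. RPL36A, RPS26 and RPL22 encode ribosomal proteins, and how the authors' counting shared reads between parents and copies is not given in the sources used here. Noncoding RNAs with no overlap and no near-identical copy were also among the 12. AL713998.1 on chromosome 6 averaged 343 FPKM, AL365226.2 (later LINC01610) 300 FPKM and AC079466.1 on chromosome 19 299 FPKM. AC087380.1 (later OR51B5, an olfactory receptor gene of the beta-globin locus on chromosome 11), which overlaps the fetal globin gene HBG2, averaged 238 FPKM. AC087632.1, which shared 85.2% of its exon bases with CSNK1G1, a casein kinase, averaged 454 FPKM. The rest were AC245297.1 at 238 FPKM, 99.8% identical to PDE4DIP, and the antisense members AC125611.3 at 218 FPKM, opposite TUBA1C, AC016723.1 (later B3GALT1-AS1) at 188 FPKM and AC015674.1 at 181 FPKM, opposite KPNB1.

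The series' controls bear on all comparisons. Summed FPKM per library ran between 824692 and 975657, 13348 to 13681 genes reached 1 FPKM, and read depth is unknown because the tables hold no counts. The summed FPKM was 824692 to 839261 in mutant ASXL1 knockout clones and 899097 to 961495 in parental clones, without overlap. The part of this gap in the lower levels of the knockout clones was not tested. The 12 erythroid and K562 markers all reached 1 FPKM in every library. Their sum was 12158 to 17585 FPKM in mutant ASXL1 knockout clones and 13798 to 25410 in parental clones, and 25949 to 29920 in FOXK2 knockout pools, 28915 to 29956 in FOXK1 knockout pools and 17606 to 18599 in SCR pools. This sum, mostly globin, was higher in the FOXK knockout pools than in SCR pools without overlap, and its part in the results was not tested. Of 17 markers of other cells, 11 stayed under 1 FPKM in every library and 4 were at 1 FPKM or more in every library. The list summed to 136 to 155 FPKM in mutant ASXL1 knockout and 137 to 148 in parental clones, and to 92.2 to 97.8 in FOXK2 knockout, 107 to 115 in FOXK1 knockout and 105 to 110 in SCR pools. Most of it came from EPCAM, at 65.5 to 104 FPKM over the libraries, and CD3D, at 19.2 to 67.0 FPKM. ASXL1 itself averaged 29.4 ± 2.53 FPKM in mutant ASXL1 knockout clones and 49.4 ± 9.36 in parental clones (SD, n = 3 each; log2 difference -0.72, limma adjusted p = 0.0142). FOXK2 averaged 26.5 ± 1.45 FPKM in FOXK2 knockout pools and 41.7 ± 1.34 in SCR pools (SD, n = 2 each; -0.64, limma adjusted p = 0.0445). FOXK1 averaged 5.83 ± 0.345 FPKM in FOXK1 knockout pools and 6.25 ± 0.0184 in SCR pools (SD, n = 2 each; -0.09, limma adjusted p = 0.648), so its transcript level does not check that label.

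On and off switches were then sought. A group was called off if every library was at 1 FPKM or less, and a switch was a member on in a knockout and off in its control, or the reverse. There were 5 such members: 1 between the clones, 3 between FOXK1 knockout and SCR pools and 1 between FOXK2 knockout and SCR pools. Switches were not counted over all genes, so whether 5 is many for a set of this size cannot be said. Only 1 of the 5, AC022296.2, was on in the knockout, and only the FOXK1 knockout pools brought it into the set. AC087072.1 and AC022296.2 are named in the rule that chose the members and are described without a test.

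AC087072.1 was listed at 0 in all 3 mutant ASXL1 knockout clones, against 22.7, 13.1 and 14.4 FPKM in parental clones. In the pools it had 8.78 and 32.5 FPKM in FOXK2 knockout, 6.52 and 0 in FOXK1 knockout, and 0 and 14.1 in SCR. The clones separated completely, while in FOXK1 knockout and in SCR 1 pool was listed at 0 and the other was not. PPP1R14B, the coding gene it resembles, had a log2 difference of -0.21 between the clone groups (limma adjusted p = 0.102).

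AC022296.2 had 14.0 and 12.4 FPKM in the FOXK1 knockout pools and was listed at 0 in the other 10 libraries, the SCR pools included. FAM76A, from which it differs at 3 bases, had between 2.52 and 5.67 FPKM over all libraries. In FOXK1 knockout pools FAM76A had 4.91 and 3.57 FPKM, against 5.55 and 4.57 in SCR pools (log2 difference -0.22, limma adjusted p = 0.521). The pseudogene's value therefore exceeded its parent's in the FOXK1 knockout pools alone.

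AL136131.3 (ENSG00000272114), an antisense RNA of 188 bases on chr6:43770429-43770616 (minus strand), lies wholly opposite an exon of VEGFA, the vascular endothelial growth factor. It was listed at 0 in both FOXK1 knockout pools, against 57.0 and 47.2 FPKM in SCR pools (limma adjusted p = 0.00166). FOXK2 knockout pools had 56.8 and 0 FPKM (adjusted p = 0.459 against SCR), mutant ASXL1 knockout clones 92.4, 0 and 42.1, and parental clones 74.4, 8.26 and 51.2. Values of 0 thus also occurred outside the FOXK1 knockout pools. VEGFA was lower in both knockouts, with 96.9 and 108 FPKM in FOXK2 knockout and 96.1 and 103 in FOXK1 knockout, against 209 and 183 FPKM in SCR pools (log2 differences -0.93, adjusted p = 0.0367, and -0.97, adjusted p = 0.026). Without stated strand, the antisense reads cannot be told apart from those of VEGFA.

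AL109659.1 (ENSG00000223720), a lincRNA of 651 exonic bases on chr1:48172972-48206857 (plus strand), was listed at 0 in both FOXK1 knockout pools, against 33.8 and 11 FPKM in SCR pools (limma adjusted p = 0.044). In FOXK2 knockout pools it had 20.7 and 0 FPKM. Clones varied as widely, with 24.5, 0 and 11.7 FPKM in mutant ASXL1 knockout and 0.258, 10.1 and 24.3 in parental. AC060780.2 (ENSG00000267340, chr17:43169880-43170077, minus strand), a processed pseudogene of 198 bases, was listed at 0 in both FOXK2 knockout pools, against 10.6 and 81.6 FPKM in SCR pools (limma adjusted p = 0.104). It had 13.0 and 10.0 FPKM in FOXK1 knockout pools, 12.6, 22.2 and 0 in mutant ASXL1 knockout clones and 12.7, 0 and 0 in parental clones. Apart from AC022296.2, every switch member had libraries both at 0 and above 10 FPKM within at least 1 other group. In the authors' deposited table, all 5 were given a log2 fold change of 0 and an adjusted p of 1 in all 3 comparisons.

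**Figure D1:**
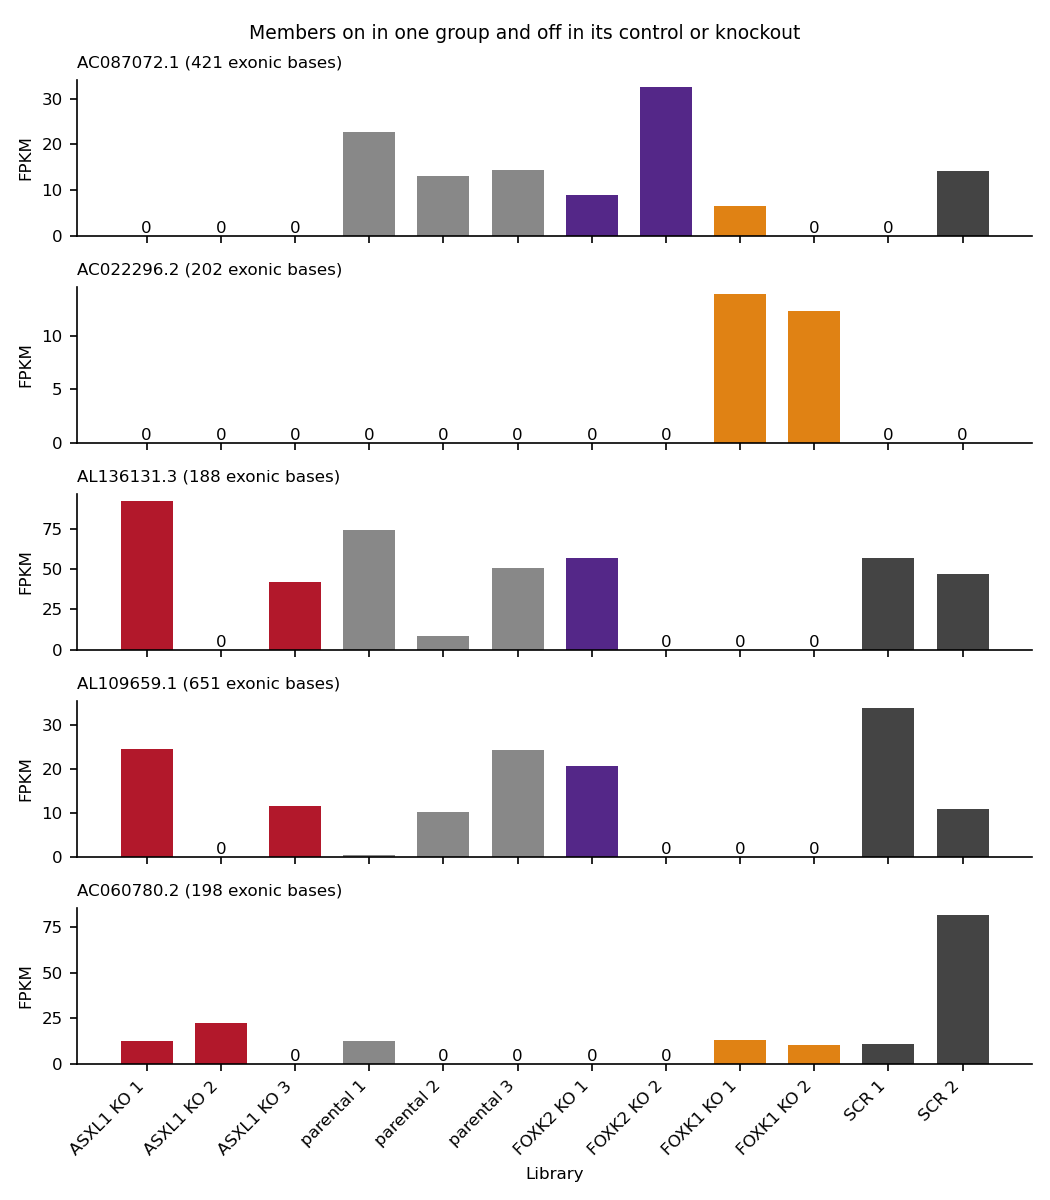
FPKM of the 5 members that switched between a knockout and its control, 1 panel each, in every library (x axis, groups coloured). AC022296.2 was above 0 only in the FOXK1 knockout pools, whereas the other 4 also had libraries at 0 and libraries over 10 FPKM side by side within a group.

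Values of 0 beside high values went with transcript length. Among members with under 300 exonic bases, 49 of 63 (77.8%) were listed at 0 in at least 1 library, against 12 of 139 (8.63%) with 300 to under 1000 bases and 4 of 242 (1.65%) with 1000 or more. The median SD within groups on the log2(FPKM + 1) scale was 1.26, 0.21 and 0.15 in the same order. Only 8 of the 63 shortest members (12.7%) were on in every group, against 86 (61.9%) and 196 (81%) in the longer classes. The same order was seen outside the members: among other genes reaching 10 FPKM, 62 of 77 under 300 bases (80.5%), 9 of 170 from 300 to under 1000 bases (5.29%) and 4 of 7977 with 1000 bases or more (0.0501%) had a library at 0. The libraries were made from cDNA fragments of 200 to 300 bp, so the shortest class lies at or under the fragment length, whose part in the zeros was not tested. Of the 5 switch members, 3 were under 300 bases.

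**Figure D2:**
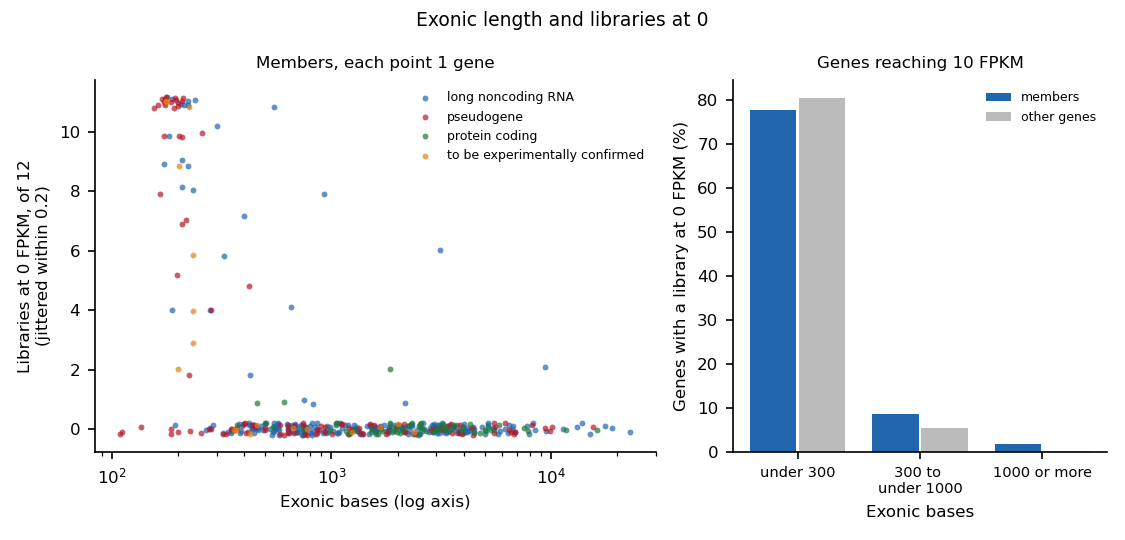
Left, for each member, exonic bases (log axis) against the number of the 12 libraries at 0 FPKM. Right, the percentage of genes with a library at 0 by length class, for members beside other genes reaching 10 FPKM. Zeros concentrated under 300 bases in both, at 77.8% of members and 80.5% of other genes.

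Distinct members with 1 library at 10 FPKM or more and every other library of the same group at 1 FPKM or less numbered 61, of which 44 were under 300 bases. Their median length was 209.5 exonic bases, against 1235 for all members. AC019205.3 was the most extreme. It had 1467 FPKM in FOXK1 knockout pool 2 and was listed at 0 in the other 11 libraries. RPL39, whose coding sequence it copies, had 4187 FPKM in that pool and 4282 in FOXK1 knockout pool 1, within a range of 3569 to 4282 FPKM over all libraries (coefficient of variation 5.94%). For AC019205.3 the authors' deposited table gave log2 fold changes of -0.05 in the clones, 0.19 in FOXK1 knockout and -0.45 in FOXK2 knockout pools. The authors' adjusted p was 0.94, 0.813 and 0.463. These fold changes do not follow the FPKM values, which were 0 in every clone and every FOXK2 knockout and SCR pool.

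In the authors' deposited table, 68 of 449 members (15.1%) carried a log2 fold change of 0 and an adjusted p of 1 in all 3 comparisons, as did 75.5% of all 58233 genes. These entries fell on the members with zeros: 57 of 66 members with a library at 0 (86.4%), against 11 of 383 without (2.87%). By length, they covered 48 of 63 members under 300 bases (76.2%), 11 of 139 from 300 to under 1000 bases (7.91%) and 8 of 242 longer ones (3.31%). By type, they covered 7 of 18 TEC members, 30 of 117 pseudogenes, 30 of 251 long noncoding RNAs and 0 of 58 protein-coding members. Differences of these members below come from the FPKM values alone.

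In the comparisons below, limma was run on log2(FPKM + 1) over all genes that passed a filter of 1 FPKM, and a gene was called at an adjusted p under 0.05 (Benjamini-Hochberg over all genes tested). To keep the choice of members out of the test, a member entered a count only if it reached 10 FPKM in a library outside the compared groups, and AC087072.1 and AC022296.2, named in the rule, entered none. Fold changes are differences on the log2(FPKM + 1) scale, knockout minus control, which understates changes of low genes.

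Between mutant ASXL1 knockout and parental clones, members leaned to lower levels in the knockout. Leaving those 2 aside, 365 of the 449 members reached 10 FPKM outside the clones, and 334 of these passed the filter. Of the 334, 18 were called higher (5.39%) and 74 lower (22.2%), 27.5% in all. Over all genes tested, 22.4% were called, 7.91% higher and 14.4% lower. The median log2 difference was -0.17 over the members tested and -0.06 over all genes tested. Groups did not overlap for 140 members (41.9%), against 42.9% of all genes. Leaving out 1 clone at a time gave 7 to 15 members higher and 35 to 70 lower, with the lowest counts without knockout clone 3 (7 and 35), knockout clone 1 (7 and 42) and parental clone 2 (7 and 41). Without the filter, 6 were higher and 43 lower.

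By type, 15 of 189 long noncoding RNAs tested rose and 49 fell. Of 77 pseudogenes 2 rose and 15 fell, of 53 protein-coding members 1 rose and 7 fell, and of 11 TEC members 0 rose and 2 fell. Among the 107 members with neither an exon overlap nor a near-identical copy, 8 rose and 28 fell. Over all genes tested, 7.91% were called higher and 14.4% lower. The part of shared reads in the decreases was not tested.

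Antisense members of coding genes were among those that fell. AC006128.1, a TEC transcript on chr19:15398696-15400356 (plus strand) opposite AKAP8L, a nuclear RNA-binding protein, had 9.95, 8.64 and 9.02 FPKM in mutant ASXL1 knockout clones, against 19.2, 18.9 and 20.2 in parental clones (log2 difference -1.0, SE 0.08, adjusted p = 0.000948). AL009031.1, antisense within GMPR, which encodes guanosine monophosphate reductase, had 8.89, 8.64 and 8.95 FPKM in mutant ASXL1 knockout clones, against 17.6, 18.0 and 17.0 in parental clones (-0.91, SE 0.07, adjusted p = 0.000948). In both, the groups lay far apart relative to their spread. Their coding partners were lower too: AKAP8L had a log2 difference of -0.71 (adjusted p = 0.00328) and GMPR -0.55 (adjusted p = 0.0054).

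The largest decreases fell on members that share exons with a coding gene. AL137782.1, which shares 44.6% of its exon bases with LMO7, had 6.68, 6.92 and 0.39 FPKM in mutant ASXL1 knockout clones, against 13.3, 30.4 and 37.8 in parental clones (-2.56, SE 0.71, adjusted p = 0.0433). LMO7 had a log2 difference of 0.32 (adjusted p = 0.271). UCHL3, a coding gene on the same strand that AL137782.1 also overlaps, was lower (-0.34, limma adjusted p = 0.0095). The authors' deposited table gave AL137782.1 a log2 fold change of -0.31 and an adjusted p of 0.375. AC144548.2, 82.5% of whose exon bases lie in ANAPC7, a subunit of the anaphase-promoting complex, had 10.2, 14.3 and 9.69 FPKM in mutant ASXL1 knockout clones, against 45.5, 28.3 and 27.6 in parental clones (-1.47, SE 0.22, adjusted p = 0.0062). ANAPC7 itself was lower by less, with a log2 difference of -0.29 (adjusted p = 0.0165). AC005363.1, a pseudogene whose exon lies inside RPS2, had 1.67, 6.17 and 3.00 FPKM in mutant ASXL1 knockout clones, against 9.99, 8.80 and 7.45 in parental clones (-1.19, adjusted p = 0.0439), while RPS2, a ribosomal protein gene with 4053 to 5763 FPKM over the libraries, differed by -0.27 (adjusted p = 0.00308).

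Members with no exon overlap and no near-identical copy also fell. LINC01508 had 12.5, 10.7 and 6.69 FPKM in mutant ASXL1 knockout clones, against 20.6, 21.3 and 16.1 in parental clones (-0.92, adjusted p = 0.0258). AC079801.1 had 28.0, 25.6 and 23.3 FPKM in mutant ASXL1 knockout clones, against 40.4, 49.5 and 68.6 in parental clones (-0.98, adjusted p = 0.0121). AC130456.3, which overlaps an exon of TMC5 on the opposite strand, fell likewise and had 19.8, 24.0 and 16.7 FPKM in mutant ASXL1 knockout clones, against 29.6, 40.1 and 50.1 in parental clones (-0.93, adjusted p = 0.0202). Members were named here only if their groups did not overlap, which held for 42.9% of all genes tested. The calls of AL137782.1, AC005363.1, LINC01508, AC079801.1 and AC130456.3 were lost without 1 or more of the clones, at adjusted p up to 0.123, 0.131, 0.0867, 0.0536 and 0.075 over all alternatives, while those of AC006128.1, AL009031.1 and AC144548.2 held under every alternative.

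Increases were fewer and smaller. AL133351.4 (later HTATSF1P2), a pseudogene wholly opposite an exon of NQO2, had 18.1, 17.7 and 23.1 FPKM in mutant ASXL1 knockout clones, against 10.1, 9.39 and 7.17 in parental clones (1.06, SE 0.15, adjusted p = 0.00517). NQO2, a quinone reductase, had a log2 difference of 0.08 (adjusted p = 0.403). AL034397.2, a noncoding RNA on chrX:65999751-66001071 (plus strand) before the MIR223 host, had 70.1, 58.7 and 75.9 FPKM in mutant ASXL1 knockout clones, against 36.8, 37.9 and 31.2 in parental clones (0.93, SE 0.11, adjusted p = 0.00347). These were the 2 largest increases among called members whose groups did not overlap.

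AC016757.1 (later LINC02610) had 16.7, 15.8 and 15.9 FPKM in mutant ASXL1 knockout clones, against 10.5, 8.97 and 10.7 in parental clones (0.63, SE 0.09, adjusted p = 0.00456). AC246817.2 (later LINC03021) had 51.7, 50.5 and 47.4 FPKM in mutant ASXL1 knockout clones, against 35.8, 35.0 and 29.2 in parental clones (0.57, adjusted p = 0.00684). Like AL133351.4 and AL034397.2, both kept their call under every alternative. The other 4 did not: AL138900.3 (later LINC02772; 0.73, adjusted p = 0.034), LINC01300 (0.70, adjusted p = 0.0456), AL627230.4 (0.70, adjusted p = 0.0429) and AC067852.2 (later HSD17B1-AS1; 0.50, adjusted p = 0.0455) lost it without several of the clones, at adjusted p up to 0.111, 0.138, 0.138 and 0.142. AC067852.2 is antisense to HSD17B1, a steroid dehydrogenase, which was lower (-0.43, adjusted p = 0.0455).

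**Figure D3:**
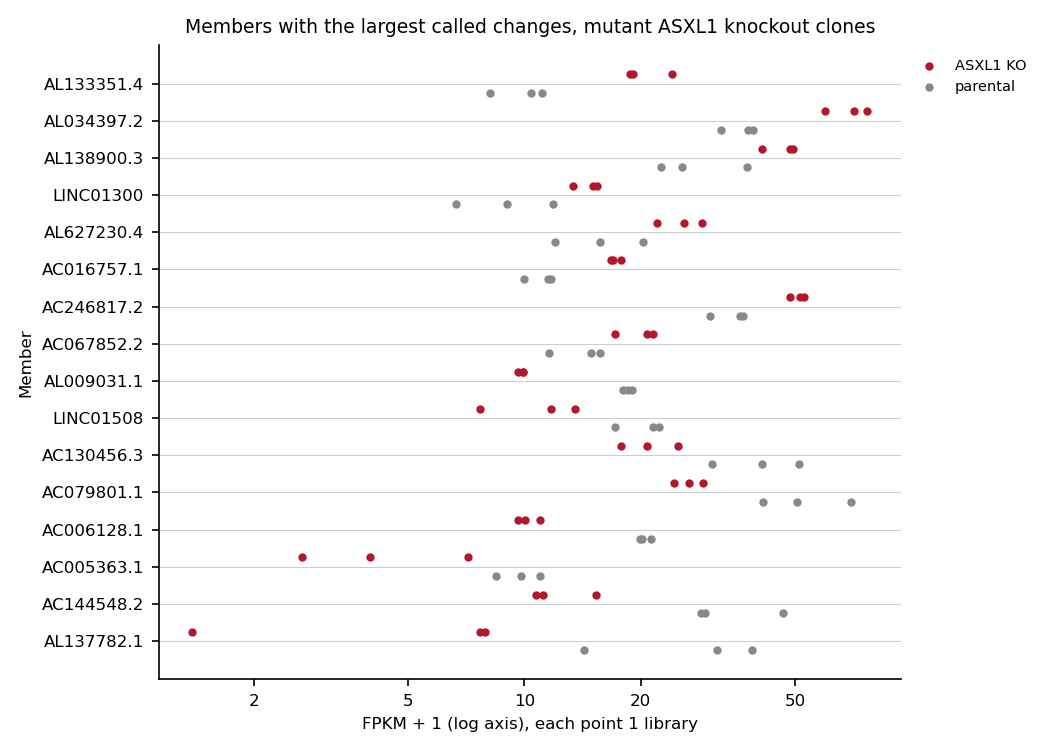
FPKM + 1 (log axis) of the 16 members with the largest called changes in either direction between mutant ASXL1 knockout clones (red) and parental clones (grey), each point 1 library. Rows were chosen among members whose groups did not overlap, with AC006128.1 and AL009031.1 the tightest and AL137782.1 the widest spread.

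Among the most abundant members, AC087632.1 averaged 355 ± 10.8 FPKM in mutant ASXL1 knockout clones and 507 ± 37.7 in parental clones (SD, n = 3 each; -0.51, adjusted p = 0.00328). The globin-locus gene AC087380.1 averaged 214 ± 7.97 FPKM in mutant ASXL1 knockout clones and 268 ± 13.7 in parental clones (-0.32, adjusted p = 0.00882). Both kept their call under every alternative. The RPL22 copy AC074033.1 averaged 110 ± 26.4 FPKM in mutant ASXL1 knockout clones and 200 ± 22.7 in parental clones (-0.88, adjusted p = 0.0131), against a log2 difference of -0.03 for RPL22 (adjusted p = 0.638). Its call was lost without knockout clone 1 (adjusted p = 0.0542; range over the alternatives 0.0131 to 0.0542). AC079466.1 averaged 197 ± 9.57 FPKM in mutant ASXL1 knockout clones and 224 ± 16.4 in parental clones (adjusted p = 0.0955).

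Besides the 2 members named in the rule, 82 reached 10 FPKM only within the clone groups and are described without a test. Some of these, chosen after their values were seen, lay far apart. LINC01892 had 19, 14.6 and 17.7 FPKM in mutant ASXL1 knockout clones, against 2.88, 3.87 and 4.08 in parental clones. AC022726.2, antisense within the apoptosis regulator BCL2, had 13.3, 11 and 17.0 FPKM in mutant ASXL1 knockout clones, against 1.91, 1.83 and 2.54 in parental clones. BCL2 had 3.54, 2.74 and 3.71 FPKM in mutant ASXL1 knockout clones, against 0.773, 0.896 and 0.753 in parental clones (log2 difference 1.25, limma adjusted p = 0.00262). For all 3 the lowest knockout value was above the highest parental value, and groups did not overlap for 42.9% of all genes tested. LINC01892 and AC022726.2 were members only through their high knockout clones, so their gap is a description. AC078845.1, a lincRNA on chromosome 7, had 11.4, 8.85 and 10.5 FPKM in mutant ASXL1 knockout clones, against 4.20, 4.58 and 2.87 in parental clones. In the other direction, AP000781.2, a protein-coding gene sharing 95.5% of its exon bases with SLC43A3, had 1.74, 4.48 and 3.06 FPKM in mutant ASXL1 knockout clones, against 11.8, 10.1 and 8.23 in parental clones. LINC00431 had 5.61, 6.05 and 6.25 FPKM in mutant ASXL1 knockout clones, against 11.6, 16.3 and 15.7 in parental clones.

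In the pools, members fell more often than they rose in both FOXK knockouts. Between FOXK1 knockout and SCR pools, 386 of 420 members that reached 10 FPKM elsewhere, again leaving aside the 2 named in the rule, were tested, and 4 were called higher (1.04%) and 21 lower (5.44%), 6.48% in all. Over all genes tested, 1.83% were called, 0.679% higher and 1.15% lower. Between FOXK2 knockout and SCR pools, 391 of 423 were tested, and 3 were called higher (0.767%) and 18 lower (4.60%), 5.37% in all. Over all genes, 1.02% were called, 0.146% higher and 0.870% lower. The median log2 difference of the members was -0.02 in FOXK1 knockout and -0.04 in FOXK2 knockout pools, beside 0.02 and 0.01 over all genes. Groups did not overlap for 229 members (59.3%) in FOXK1 knockout pools, against 54.9% of all genes, and for 226 (57.8%) in FOXK2 knockout pools, against 54.0%. With 2 pools a group these calls were fragile. Leaving out any 1 pool, which leaves a group with a lone library assumed to vary like the others, left 0 calls in either direction in both comparisons, and without the filter 0 higher and 1 lower remained in FOXK1 knockout pools and 0 in either direction in FOXK2 knockout pools. The 2 comparisons share their SCR pools, so similar values in both are not independent.

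Long noncoding RNAs made up most of the decreases: 18 of 226 tested in FOXK1 knockout and 15 of 227 in FOXK2 knockout pools, with 2 and 1 higher. Of the pseudogenes, 2 rose and 1 fell of 87 in FOXK1 knockout, and 2 rose and 2 fell of 89 in FOXK2 knockout pools. Among members with neither an exon overlap nor a near-identical copy, 13 of 129 fell in FOXK1 knockout and 9 of 131 in FOXK2 knockout pools, and 1 rose in each.

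LINC01300, an antisense RNA on chromosome 8, had 2.01 and 2.01 FPKM in FOXK2 knockout pools and 2.61 and 1.91 in FOXK1 knockout pools, against 15.7 and 12.3 in SCR pools. Its log2 differences were -2.31 (SE 0.15, adjusted p = 0.0167) in FOXK2 knockout and -2.20 (SE 0.18, adjusted p = 0.0249) in FOXK1 knockout pools, the widest fall of any called member with values above 0 in every pool. The MIR223 neighbour AL034397.2 had 20.5 and 19.9 FPKM in FOXK2 knockout and 21.3 and 19.6 in FOXK1 knockout pools, against 52.7 and 45.4 in SCR pools (-1.24, adjusted p = 0.0199, and -1.22, adjusted p = 0.0249). These 2 members, higher in mutant ASXL1 knockout than in parental clones, were lower in both FOXK knockouts than in SCR pools.

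AL034397.3, the MIR223 host on chrX:66015461-66020422 (plus strand), had 33.8 and 37.4 FPKM in FOXK2 knockout and 36.1 and 34.0 in FOXK1 knockout pools, against 71.8 and 69.0 in SCR pools. The log2 differences were -0.96 (SE 0.07, adjusted p = 0.0199) in FOXK2 knockout and -0.98 (SE 0.06, adjusted p = 0.0139) in FOXK1 knockout pools. In the clones it averaged 84.0 ± 4.43 FPKM in mutant ASXL1 knockout and 98.4 ± 7.26 in parental (SD, n = 3 each; -0.22, adjusted p = 0.0597). The reverse held for the MIR142 host AC004687.1 (chr17:58330884-58332508, minus strand), called in the clones and not in the pools. It had 73.6, 78.4 and 75.0 FPKM in mutant ASXL1 knockout clones, against 130, 112 and 108 in parental clones (-0.62, SE 0.08, adjusted p = 0.00356), a call that held under every alternative. In the pools it had 101 and 110 FPKM in FOXK2 knockout and 106 and 115 in FOXK1 knockout, against 131 and 120 in SCR (-0.24, adjusted p = 0.184, and -0.18, adjusted p = 0.236). Whether either host's change differed between clones and pools was not tested. The microRNA genes MIR223 and MIR142 were themselves listed at 0 in every library. In all, 16 members hosted 20 microRNA genes, 6 of them in an exon.

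AL109615.3 (later SCIRT), an antisense RNA on chr6:43995723-44074652 (minus strand), had 6.25 and 6.07 FPKM in FOXK2 knockout and 7.74 and 7.37 in FOXK1 knockout pools, against 17.3 and 15.5 in SCR pools (-1.28, adjusted p = 0.0199, and -1.02, adjusted p = 0.026). AL162595.1 (later RAB4A-AS1), which starts 34 bases from RAB4A on the other strand, had 5.03 and 4.80 FPKM in FOXK2 knockout and 5.64 and 5.88 in FOXK1 knockout pools, against 12.5 and 12.6 in SCR pools (-1.20, adjusted p = 0.0199, and -1.0, adjusted p = 0.0249). RAB4A, a small GTPase of endosomes, had log2 differences of -0.27 in both knockouts (adjusted p = 0.5 in FOXK2 knockout and 0.511 in FOXK1 knockout). Its SCR pools lay apart, at 25.2 and 38.5 FPKM. In the clones RAB4A was called lower (-0.34, limma adjusted p = 0.03) and AL162595.1 was not (-0.54, limma adjusted p = 0.17). Whether the member and its neighbour changed differently was not tested.

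Neighbouring lincRNAs of chromosome 14 fell together. AL049836.1 (chr14:101628984-101632530, minus strand) had 4.56 and 6.95 FPKM in FOXK2 knockout and 11 and 10.6 in FOXK1 knockout pools, against 21.0 and 23.9 in SCR pools (-1.82, adjusted p = 0.0424, and -0.99, adjusted p = 0.0272). LINC02320 (chr14:101634454-101731108, minus strand) had 5.17 and 5.86 FPKM in FOXK2 knockout and 5.76 and 4.61 in FOXK1 knockout pools, against 11.2 and 13.2 in SCR pools (-1.02, adjusted p = 0.0498, and -1.10, adjusted p = 0.0473). Neither knockout group overlapped SCR for either member, and members were named for a comparison only if their groups did not overlap there. Groups did not overlap for 54.9% of all genes tested in FOXK1 knockout and 54.0% in FOXK2 knockout pools.

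Further noncoding RNAs, chosen after their values were seen, fell in both knockouts. AC099811.5, inside STAT5B, a signal transducer of cytokine receptors, had 8.29 and 7.74 FPKM in FOXK2 knockout and 9.85 and 10.3 in FOXK1 knockout pools, against 19.7 and 18.8 in SCR pools (adjusted p = 0.0184 and 0.026). LINC00508 had 11.9 and 12.9 FPKM in FOXK2 knockout and 12.7 and 12.8 in FOXK1 knockout pools, against 22.3 and 23.4 in SCR pools (adjusted p = 0.0321 and 0.026). LINC00662 had 13.3 and 13.5 FPKM in FOXK2 knockout and 10.5 and 12.2 in FOXK1 knockout pools, against 21.4 and 21.8 in SCR pools (adjusted p = 0.0422 and 0.0373). LINC01088 averaged 26.0 ± 1.05 FPKM in FOXK2 knockout and 26.9 ± 1.64 in FOXK1 knockout pools, against 41.5 ± 1.18 in SCR pools (SD, n = 2 each; adjusted p = 0.0367 and 0.038). It was also lower in mutant ASXL1 knockout clones, at 34.0 ± 3.37 FPKM, than in parental clones, at 48.5 ± 8.75 (SD, n = 3 each; adjusted p = 0.0419, and up to 0.118 over the alternatives).

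Some decreases were called in 1 knockout. In FOXK2 knockout pools, AL365259.1 (later HEY2-AS1) had 6.04 and 5.04 FPKM, against 16.3 and 18.8 in SCR pools (-1.51, adjusted p = 0.0252), with 10.5 and 10.8 in FOXK1 knockout pools. AL627230.4 had 4.34 and 5.25 FPKM in FOXK2 knockout pools, against 11.4 and 13.6 in SCR pools (-1.22, adjusted p = 0.0446), with 0.49 and 2.67 in FOXK1 knockout pools (adjusted p = 0.0765). The abundant PDE4DIP copy AC245297.1 averaged 186 ± 3.3 FPKM in FOXK2 knockout and 250 ± 4.46 in SCR pools (SD, n = 2 each; -0.43, adjusted p = 0.0445). Called in FOXK1 knockout pools, AC129492.3, whose exons lie wholly within VAMP2, had 2.81 and 3.03 FPKM there, against 12.2 and 14.2 in SCR pools (-1.85, adjusted p = 0.0148), with 0 and 4.05 in FOXK2 knockout pools (adjusted p = 0.175). VAMP2, a synaptobrevin of vesicle fusion, differed by -0.27 (adjusted p = 0.123). AC020914.4 had 0.398 and 0.425 FPKM in FOXK1 knockout pools, against 4.06 and 6.18 in SCR pools (adjusted p = 0.0344), with 2.17 and 2.27 in FOXK2 knockout pools (adjusted p = 0.127). Called in both knockouts, AC009292.2 was listed at 0 in all 4 knockout pools, against 5.95 and 3.4 FPKM in SCR pools (adjusted p = 0.043 in FOXK2 knockout and 0.0373 in FOXK1 knockout). Its values also varied widely within the mutant ASXL1 knockout group, with 14.1 FPKM in clone 1 and 1 FPKM or less in the other clones.

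The direct fit of FOXK2 against FOXK1 knockout pools called 0 of 377 members with limma, where 37 had an unadjusted p under 0.05 and 0.0368% of all genes were called, 0.00735% higher and 0.0294% lower. A call in 1 knockout alone is therefore not shown to differ from the other knockout. Differences seen with 1 FOXK2 knockout pool left out rested on the lone pool that remained. Without FOXK2 knockout pool 2, the log2 differences were 1.38 for AC135983.2, 5.75 for AL137002.1 and 5.85 for AL136131.3. Without FOXK2 knockout pool 1, AC127024.7 differed by -5.40. AL137002.1, AL136131.3 and AC127024.7 had 52.9, 56.8 and 81.2 FPKM in FOXK2 knockout pool 1 and 1 FPKM or less in pool 2.

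Few members rose in the FOXK knockouts. LINC00861 on chromosome 8 had 36.0 and 34.4 FPKM in FOXK2 knockout and 38.4 and 34.2 in FOXK1 knockout pools, against 20.8 and 18.5 in SCR pools (0.81, adjusted p = 0.0388, and 0.85, adjusted p = 0.0376). AC005363.1 inside RPS2 had 20.3 and 21.9 FPKM in FOXK2 knockout and 18.9 and 20.1 in FOXK1 knockout pools, against 11.2 and 10.5 in SCR pools (0.89, adjusted p = 0.0317, and 0.79, adjusted p = 0.031), while RPS2 differed by -0.12 (adjusted p = 0.557) and -0.17 (adjusted p = 0.295). AC005363.1 was thus higher in both FOXK knockouts than in SCR pools and lower in mutant ASXL1 knockout than in parental clones. In FOXK2 knockout pools, AC233702.2, a pseudogene 95.3% identical to NCOR1P1, had 14.8 and 17.3 FPKM, against 6.97 and 7.01 in SCR pools (1.09, adjusted p = 0.0325). The authors' deposited table gave AC233702.2 a log2 fold change of 0.04 and an adjusted p of 0.95 there. The RPL36A copy AC116533.1 had 1361 and 1362 FPKM in FOXK1 knockout pools, against 984 and 1062 in SCR pools (0.41, adjusted p = 0.0446), and AC016629.3 had 23.4 and 24.3 FPKM in FOXK1 knockout pools, against 16.9 and 16.5 in SCR pools (0.49, adjusted p = 0.0485). RPL36A itself differed by 0.02 (adjusted p = 0.877).

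**Figure D4:**
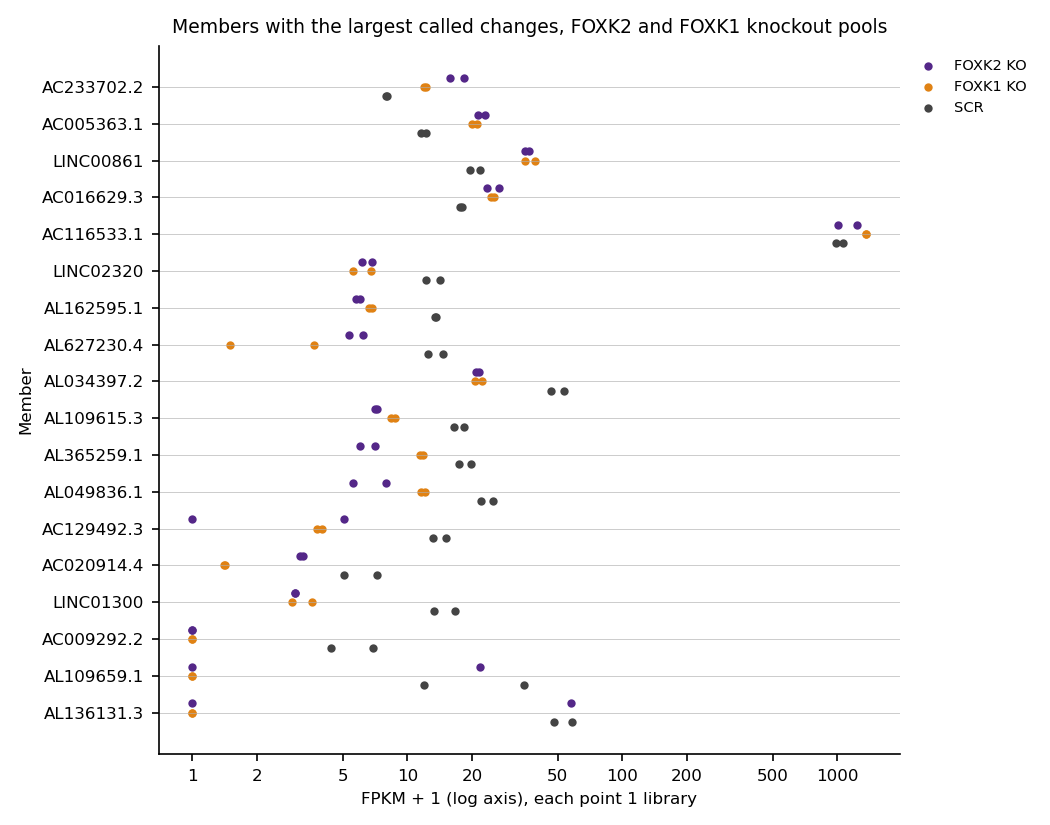
FPKM + 1 (log axis) of the members with the largest called changes in FOXK2 or FOXK1 knockout pools, each point 1 pool, with FOXK2 knockout above FOXK1 knockout above SCR in each row. Among rows with no pool at 0, LINC01300 shows the widest gap between the 4 knockout pools (1.91 to 2.61 FPKM) and the SCR pools (12.3 and 15.7 FPKM).

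The authors' deposited table, made from the same libraries, gave the called members these values. Of the 92 called between the clones, it gave 78 the same direction at an adjusted p under 0.05, 12 the same direction above it, and 2 (LINC01508 and AC005363.1) a fold change of 0 with a p of 1. In the same order, the authors' deposited table gave 20, 2 and 3 of the 25 members called in FOXK1 knockout pools, and 16, 3 and 2 of the 21 called in FOXK2 knockout pools. Those with a fold change of 0 were AC009292.2, AL109659.1 and AL136131.3 in FOXK1 knockout and AC009292.2 and AL627230.4 in FOXK2 knockout pools. It gave 0 of them the opposite direction.

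Coding neighbours were set beside the called members. In mutant ASXL1 knockout clones, 39 called members overlapped a coding gene and 33 of those genes were tested: 9 were called in the member's direction, 2 in the other and 22 not. Of 50 called members with no overlap, 30 had a nearest coding gene that was tested, with 2 in the same direction, 2 in the other and 26 not called. Over all genes tested, 22.4% were called in that comparison. In FOXK1 knockout pools, 1 of 7 overlapping genes tested and 0 of 7 nearest genes were called, and in FOXK2 knockout pools 1 of 4 and 0 of 7, where 1.83% and 1.02% of all genes were called. In FOXK2 knockout pools the pair was AC008105.3 (later FMNL1-DT) and FMNL1, a formin that shapes actin. AC008105.3 had 1.70 and 1.67 FPKM in FOXK2 knockout and 1.07 and 2.82 in FOXK1 knockout pools, against 4.97 and 4.95 in SCR pools (adjusted p = 0.0415 and 0.15), and FMNL1 had log2 differences of -0.88 (adjusted p = 0.0446) and -1.0 (adjusted p = 0.0249).

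Promoter letters were available for 89 members (106 RefSeq entries on GRCh38.p14, 250 bases before to 50 after the start) and for none of the switch members. The forkhead core TGTTTAC or its reverse complement GTAAACA, searched on both strands, was in 3 of the 106 (2.83%), against 3.42% of 35116 promoters of all genes. The GATA core AGATAA or its reverse complement TTATCT was in 11 of 106 (10.4%), against 10.3% of all promoters. The promoter of AL109615.3, which fell in both FOXK knockouts, is shown as an example (chr6:44074603-44074902, minus strand).
AL109615.3: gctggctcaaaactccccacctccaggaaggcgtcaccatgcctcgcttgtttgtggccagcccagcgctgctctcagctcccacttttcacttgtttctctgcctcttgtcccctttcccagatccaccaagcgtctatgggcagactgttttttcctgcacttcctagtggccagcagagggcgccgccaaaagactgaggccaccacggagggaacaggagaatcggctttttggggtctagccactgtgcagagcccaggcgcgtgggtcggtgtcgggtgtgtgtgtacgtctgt
Neither core was in this window, which says only that these letters are not there.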

How the data were processed

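RNA-seq values of 12 K562 libraries were taken from the deposited tables, which hold FPKM per gene, per the file headers. Library construction used total RNA, cDNA fragments of 200 to 300 bp and paired reads of 150 bases, per the labels' protocols. GRCh38.p10, TopHat, Bowtie, RSEM, edgeR and Cufflinks are named in the submitters' processing notes, with no versions or roles. Log2 fold changes and p-values in the authors' deposited table are quoted only where it is named. In every library, 99.99% to 100% of values between 0.5 and 500 FPKM were whole multiples of 1 step (0.0095 to 0.0104 FPKM, tolerance 0.0006) whatever the gene, so whole reads could not be recovered, depth is unknown and no count model was run.

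From these values, log2(FPKM + 1) was fitted with limma 3.58.1 (R 4.3.3, variance trend, two-sided) in 4 comparisons, each over all genes at 1 FPKM or more in a number of libraries no lower than the size of the smaller group, and p-values were adjusted by Benjamini-Hochberg over all genes tested. The fit of FOXK2 against FOXK1 knockout pools used all 6 pools. The fit was tested on simulated data. Python 3.11.15, pandas 2.3.3, numpy 2.4.6 and matplotlib 3.10.9 were used, bedtools 2.31.1 for overlaps with GENCODE 29 (GRCh38), and BLAST+ 2.17.0 for copies (95% identity over 50% of the transcript). By gene ID, 444 of 449 members were in GENCODE 29, where 62 had another name.

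The members and lists were chosen with earlier results of these data known. Named members were those in the rule for the set, the 12 most abundant, all switches, the 8 largest called changes in each direction whose groups did not overlap, members high in 1 library of a group, their overlapping or nearest genes, and the 3 genes on either side of the threshold. Alternatives were a pseudocount of 0.1, no filter, median-ratio scaling, no variance trend, the replicate number as a block, and each library left out in turn. A result on members that share a sequence is not reported here.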

Additional observations from a re-analysis of the deposited data

Results flagged for a closer look

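AC006128.1, the TEC transcript opposite AKAP8L, was picked out because both FOXK2 knockout pools lay above and both FOXK1 knockout pools below the SCR pools: 9.70 and 10.5 FPKM in FOXK2 knockout, 8.15 and 8.41 in FOXK1 knockout, and 9.02 and 8.98 in SCR. In the direct fit, FOXK2 minus FOXK1 knockout was 0.256 on the log2(FPKM + 1) scale (SE 0.08, limma adjusted p = 0.742), so the difference did not pass the test.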

How the results depend on the processing

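Alternatives were run for 26 called members in the ASXL1 comparison, 21 in FOXK1 knockout and 19 in FOXK2 knockout pools, and none of these changed direction. Of the 26, 10 kept their call under every alternative. In FOXK1 knockout pools 1 of 21 (AL136131.3) and in FOXK2 knockout pools 0 of 19 kept it under the alternatives that use all libraries, and 0 with a pool left out. AL136131.3, of 188 exonic bases, was listed at 0 in 4 of the 12 libraries, some of them outside the FOXK1 knockout pools. Members called higher in mutant ASXL1 knockout clones numbered 18, against 6 without the filter, 11 without the variance trend, 10 with the replicate block and 7 to 15 with 1 clone left out. Members called lower numbered 74, against 43 without the filter, 52 with the replicate block and 35 to 70 with 1 clone left out. In FOXK1 knockout pools, 4 higher and 21 lower became 0 and 1 without the filter, 0 and 5 without the variance trend, 0 and 5 with the replicate block, and 0 and 0 with a pool left out. In FOXK2 knockout pools, 3 higher and 18 lower became 0 and 0 without the filter, 0 and 5 without the variance trend, 0 and 3 with the replicate block, and 0 and 0 with a pool left out. FOXK2 against FOXK1 knockout pools gave 0 and 0 with the replicate block, 0 to 3 higher and 0 to 1 lower with a pool left out. Left-out libraries mean fewer samples, and the cause of the other changes was not tested. Same-numbered libraries did not deviate together (correlations of -0.104 to 0.0503), so the numbers were not taken to pair samples. A crossed replicate block in FOXK1 knockout pools, added after seeing the data, gave 0 higher and 2 lower. With no read depth, values of 0 give no limit on a level.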

Other observations

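Long noncoding RNAs with names of their own were listed for context: 37 names, found under 40 gene IDs. In mutant ASXL1 knockout clones, 26 were tested, 5 rose and 4 fell, where 7.91% of all genes tested were called higher and 14.4% lower. H19, an imprinted RNA, averaged 14.4 ± 0.756 FPKM in mutant ASXL1 knockout clones and 3.06 ± 0.157 in parental clones (SD, n = 3 each; log2 difference 1.92, limma adjusted p = 0.000177). ZFAS1, a host of small nucleolar RNAs, averaged 283 ± 20.7 FPKM in mutant ASXL1 knockout clones and 181 ± 9.80 in parental clones (0.64, limma adjusted p = 0.00241). EPB41L4A-AS1, JPX and GAS5 also rose, by 0.69, 0.38 and 0.24. DANCR averaged 141 ± 15.1 FPKM in mutant ASXL1 knockout clones and 244 ± 4.54 in parental clones (-0.79, limma adjusted p = 0.00178), and UCA1, NEAT1 and CYTOR fell by 0.50, 0.29 and 0.28. In FOXK1 knockout pools, MIR17HG, host of the miR-17-92 cluster, rose alone of 27 tested, at 75.9 ± 0.537 FPKM against 57.4 ± 0.0976 in SCR pools (SD, n = 2 each; 0.40, limma adjusted p = 0.038). In FOXK2 knockout pools 0 of 27 were called by limma, and 4 had an unadjusted p under 0.05.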
